A study of Mus musculus with 9 samples.

Results

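The genes described here encode the enzymes that write, maintain and remove DNA methylation and 1 protein that reads it. They are the DNA methyltransferases Dnmt1, Dnmt3a and Dnmt3b, the TET dioxygenases Tet1, Tet2 and Tet3, the maintenance cofactor Uhrf1 with its paralogue Uhrf2, and the methyl-CpG binding protein Mbd1. They were taken by name from a table of RNA-seq read counts in mouse brain, and they are 9 of 49315 gene rows. The rule uses no measured value, but the genes were proposed with earlier results of these data known. All 9 passed the filter on low counts that left 18492 genes for testing. RNA was measured in whole brain of wild-type male mice of the C57BL/6J strain. The young group held 5 mice aged 3 months by the labels (the study's methods allow 3 or 4), and the old group held 4 mice aged 33 months, numbered 1, 3, 4 and 5 as in the labels. Libraries were selected for polyadenylated RNA and held between 14229259 counts (young 3) and 21150439 counts (young 4). Whole brain is a mixture, and markers of its main cell types were present in both groups: the neuronal gene Rbfox3 was at 338 ± 10.8 counts per 1000000 (CPM; mean ± SD, n = 5) in young and 332 ± 26.2 (n = 4) in old brains, and the astrocyte enzyme gene Aldoc at 938 ± 80.5 and 972 ± 123.

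DNA methylation places a methyl group on cytosine, mostly where a guanine follows (CpG), and in neurons also in other contexts. DNMT3A and DNMT3B set new marks, whereas DNMT1, brought to replicating DNA by UHRF1, copies marks to the new strand. TET proteins oxidize 5-methylcytosine to 5-hydroxymethylcytosine, which is abundant in neurons, and further to bases that repair enzymes replace by unmodified cytosine.

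Of the 9 genes, Tet1 differed between ages. It was lower in old brains by 25.7%, a log2 fold change of -0.43. This made 1 of 9 members past an adjusted p of 0.05 in edgeR's quasi-likelihood test, against 11.0% of all genes tested (4.83% lower and 6.20% higher in old brains). No member also passed an absolute log2 fold change of 0.58, as 2.68% of all genes did. Two-sided unadjusted p was under 0.05 for 2 members, Tet1 and Tet3, against 26.0% of all genes. The same 2 genes had CPM values that did not overlap between the groups, lower in old brains in both. Over all genes, 6.08% had that pattern and 6.50% the opposite one, 12.6% together. The median log2 fold change was -0.025 over the 9 members and 0.00 over all genes, and 7 of 9 members had a value below 0.

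**Figure D1:**
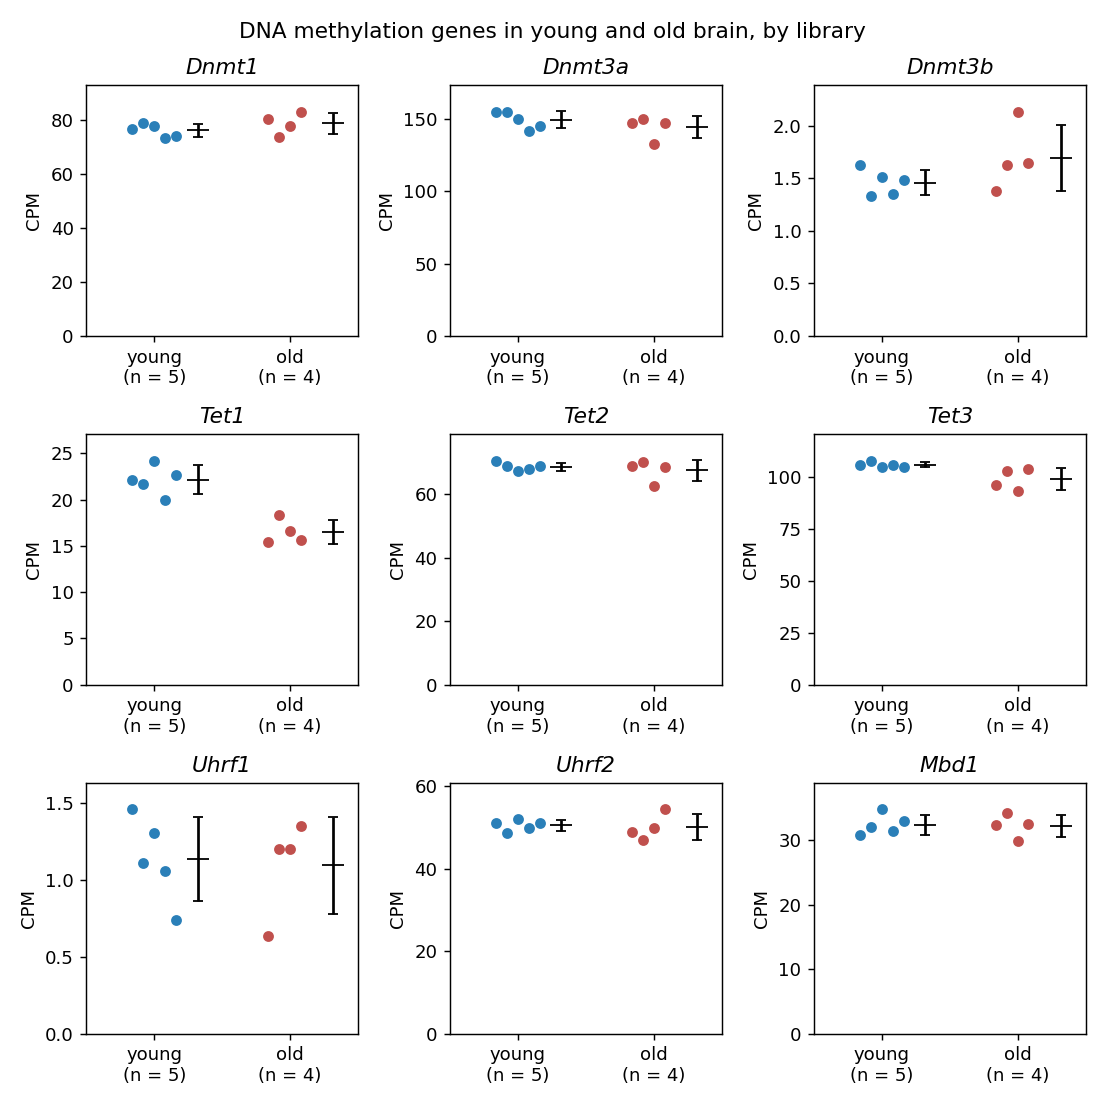
CPM of each of the 9 genes in every library, with 5 young and 4 old brains as points, a bar at each group mean and an error bar of 1 SD; each panel has its own linear axis from 0. Tet1 and Tet3 are the genes whose groups do not overlap.

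Among the methyltransferases, Dnmt1 (chromosome 9, 20907209 to 20959888, GRCm38), the maintenance enzyme, was at 77.0, 79.1, 77.8, 73.4 and 74.3 CPM in the 5 young brains. It was at 80.7, 73.8, 78.0 and 83.2 CPM in the 4 old brains, within or just above the young range. Its log2 fold change was 0.05 (SE 0.04, 95% interval -0.04 to 0.14), with an adjusted p of 0.50 in edgeR, and -0.11 on the scale log2(TPM + 1), with TPM as transcripts per 1000000, on which the median of all genes was shifted by -0.14.

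Dnmt3a (chromosome 12, 3806007 to 3914443), the main de novo enzyme of the postnatal brain, had the highest CPM of the 9 genes. It was at 155, 155, 150, 142 and 145 CPM in young brains and at 147, 150, 133 and 147 CPM in old brains. The groups overlapped, with old 4 as the lowest library, and the log2 fold change was -0.05 (SE 0.04, 95% interval -0.14 to 0.04, edgeR adjusted p = 0.48). An antisense gene, Dnmt3aos, lies on the opposite strand, and reads of the pair cannot be told apart if the counting ignored strand, but Dnmt3aos itself was counted at only 0.666 CPM in young and 0.69 CPM in old brains.

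Dnmt3b (chromosome 2, 153649450 to 153687730), the other de novo enzyme, was scarce. It was at 1.62, 1.33, 1.51, 1.35 and 1.48 CPM in young brains, from 22 to 31 counts a library. It was at 1.38, 1.62, 2.13 and 1.64 CPM in old brains, with the highest value in old 4. The log2 fold change of 0.22 (SE 0.18, 95% interval -0.17 to 0.61, edgeR adjusted p = 0.49) left room for changes of either sign.

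Of the pair of UHRF genes, Uhrf1 (chromosome 17, 56303321 to 56323486), which recognizes hemimethylated DNA after replication, was the least abundant of the 9 genes per length. It was at 1.46, 1.11, 1.31, 1.06 and 0.741 CPM in young brains and at 0.637, 1.20, 1.20 and 1.35 CPM in old brains. These rest on 12 to 28 counts a library, and the log2 fold change was -0.06 (SE 0.26, 95% interval -0.62 to 0.49, edgeR adjusted p = 0.91). This interval holds the log2 fold change of Tet1 as well as 0. Its sign also turned when 1 library was left out: the log2 fold change was 0.14 without old 1 and 0.05 without young 1.

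Uhrf2 (chromosome 19, 30030513 to 30093722), which binds hydroxymethylated DNA, was far more abundant, at 51.2, 48.6, 52.0, 50.0 and 51.2 CPM in young brains. It was at 49.0, 47.1, 50.0 and 54.4 CPM in old brains, on both sides of the young range. The log2 fold change was -0.01 (SE 0.05, 95% interval -0.11 to 0.09, edgeR adjusted p = 0.90).

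The TET genes are shown with the sequence just upstream of their annotated starts, because CpG is the dinucleotide on which the enzymes act and the 3 genes differ in it. They lie in the RefSeq promoter window (GRCm38.p6, minus strand, 250 bases before to 50 after the start). Each stretch runs upstream from the start to the first annotated exon met, for at most 100 bases. The stretches are chr10:62887325-62887412 for Tet1, chr3:133544391-133544490 for Tet2 and chr6:83441679-83441754 for Tet3. Capitals mark the dinucleotide CG, which reads the same on both strands.
Tet1: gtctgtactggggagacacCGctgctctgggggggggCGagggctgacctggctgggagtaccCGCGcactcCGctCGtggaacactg
Tet2: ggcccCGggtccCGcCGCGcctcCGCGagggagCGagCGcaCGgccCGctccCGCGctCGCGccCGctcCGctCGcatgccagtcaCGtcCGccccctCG
Tet3: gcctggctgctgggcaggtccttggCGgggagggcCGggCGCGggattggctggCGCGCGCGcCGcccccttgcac
These stretches hold 6 CG in 88 bases for Tet1, 20 in 100 bases for Tet2 and 9 in 76 bases for Tet3. Over the whole window of 300 bases, Tet1 held 17 CG, a number that 31.4% of the 32851 mouse promoter windows reach. Tet3 held 22 (23.1% of windows reach it) and Tet2 held 57 (0.152%), beside a median of 7. The RefSeq starts of the 3 genes lie inside the spans that GENCODE M21 gives them, so other transcripts start further upstream. DNA methylation itself was not measured in the data used here.

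Tet1 (chromosome 10, 62804570 to 62908996), which binds CpG-rich DNA through a CXXC domain, was at 22.1, 21.7, 24.2, 19.9 and 22.7 CPM in young brains. It was at 15.4, 18.3, 16.6 and 15.6 CPM in old brains. The highest old library, old 3, was below the lowest young library, young 4. The means were 22.1 ± 1.54 (SD, n = 5) and 16.5 ± 1.32 (SD, n = 4), a log2 fold change of -0.43 (SE 0.07, 95% interval -0.58 to -0.28) with an adjusted p of 0.0021 in edgeR. The exact permutation test over the 9 samples gave a two-sided p of 0.0159, the smallest this design allows. Leaving out each library in turn kept the adjusted p between 0.00098 and 0.0079 and the log2 fold change between -0.48 and -0.40. On the log2(TPM + 1) scale, the log2 fold change was -0.46 and its adjusted p in limma was 0.13. In bulk brain, fewer cells of a type that holds the transcript and less transcript per cell cannot be told apart.

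Tet2 (chromosome 3, 133463679 to 133545139), which has no CXXC domain of its own and overlaps Gm42567 on the opposite strand (0.0691 CPM in young and 0.0993 CPM in old brains), was at 70.5, 68.8, 67.2, 67.8 and 68.9 CPM in young brains. It was at 68.8, 70.0, 62.5 and 68.6 CPM in old brains, inside the young range but for old 4. The log2 fold change was -0.025 (SE 0.04, 95% interval -0.11 to 0.06, edgeR adjusted p = 0.75).

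Tet3 (chromosome 6, 83362373 to 83459084), the most abundant TET gene, was at 106, 108, 105, 106 and 105 CPM in young brains. It was at 96.3, 103, 93.5 and 104 CPM in old brains. Every old library was below every young one, by little for old 3 and old 5. The means of 106 ± 1.27 (SD, n = 5) and 99.2 ± 5.10 (SD, n = 4) differed by -6.37%. The log2 fold change of -0.10 (SE 0.04, 95% interval -0.18 to -0.01) did not pass in edgeR (unadjusted p = 0.025, adjusted p = 0.13), while the exact permutation test, not adjusted over genes, gave 0.0159.

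Mbd1 (chromosome 18, 74267605 to 74282732), a reader that binds methylated CpG and recruits repressors, was at 30.8, 32.1, 34.8, 31.5 and 33.0 CPM in young brains. It was at 32.4, 34.2, 29.9 and 32.5 CPM in old brains, and the groups overlapped almost fully. The log2 fold change was -0.01 (SE 0.05, 95% interval -0.12 to 0.11, edgeR adjusted p = 0.95).

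**Figure D2:**
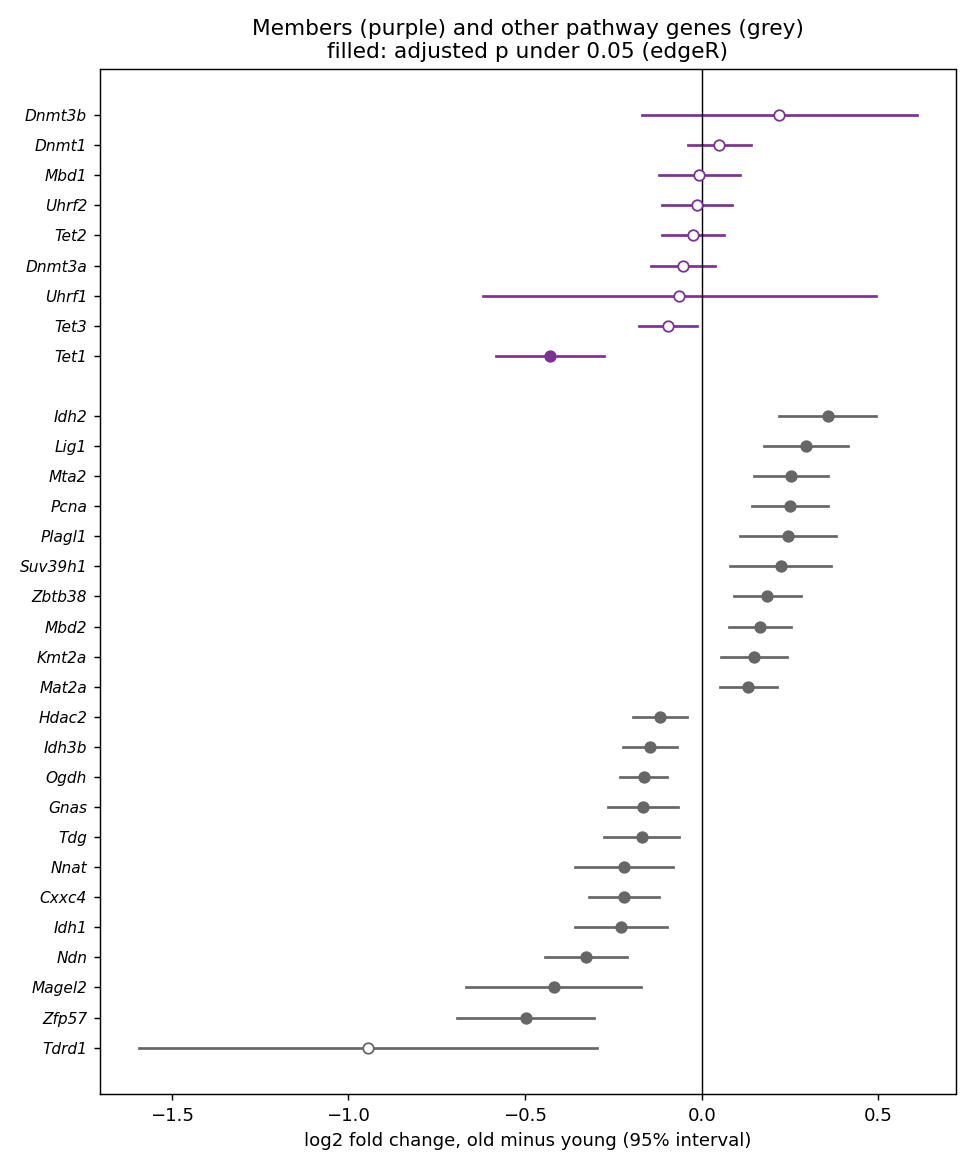
Log2 fold change, old minus young, of the 9 genes (purple) and of 22 named pathway genes (grey). Points mark the edgeR estimate, filled at an adjusted p under 0.05, and lines the 95% interval. The interval of Tet1 runs from -0.58 to -0.28, and those of Dnmt3b and Uhrf1 are the widest among the 9 genes.

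Within a library the TET genes could be compared with each other, which leaves out whatever scales the whole library. The pairs were chosen after the values were seen. The log2 ratio of Tet1 to Tet2 was -1.63 ± 0.11 (SD, n = 5) in young and -2.03 ± 0.13 (SD, n = 4) in old brains, with an exact two-sided permutation p of 0.0159. Against Tet3, Tet1 was at -2.25 ± 0.11 and -2.58 ± 0.12, with the same exact p of 0.0159. Neither pair overlapped between the groups. Over the 7 pairs tested inside the TET, DNMT and UHRF families, the adjusted value of both was 0.0556, and none of the 7 passed 0.05 after adjustment. The log2 ratio of Tet2 to Tet3 was higher in old brains by 0.07 (exact p = 0.0317, adjusted 0.0741), and that of Dnmt1 to Dnmt3a by 0.10 (exact p = 0.0952, adjusted 0.167). With 1 library left out, the unadjusted exact p of Tet2 to Tet3 ran from 0.0286 to 0.0714. That of Dnmt1 to Dnmt3a was 0.0357 without old 3 and at least 0.143 in the other fits. In terms of levels, Tet1 made up 12.6 ± 0.83% of the summed TET TPM in young and 10.1 ± 0.77% in old brains.

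**Figure D3:**
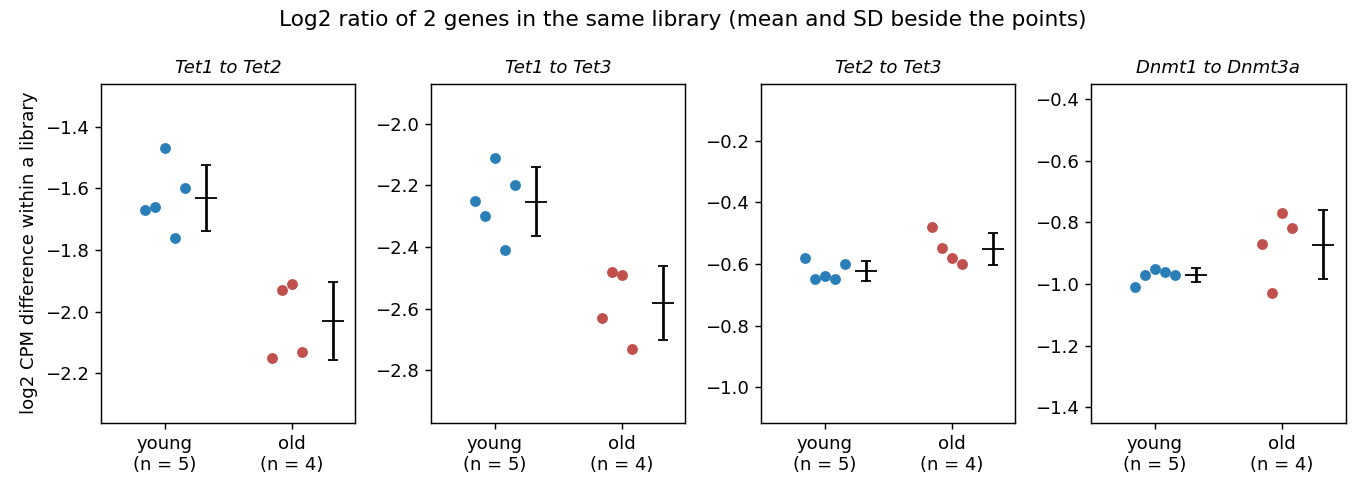
Within-library log2 ratios of CPM for pairs of genes in the same family, with 5 young and 4 old libraries as points. The ratios of Tet1 to Tet2 and of Tet1 to Tet3 are lower in every old library than in every young one.

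Levels between genes were compared per length, on the deposited TPM values. Mbd1 was highest at 31.8 TPM in young brains, followed by Dnmt1 at 27.2 TPM, Dnmt3a at 23.6 TPM, Tet3 at 16.6 TPM, Uhrf2 at 15.5 TPM and Tet2 at 10.7 TPM. Tet1 was lower, at 3.98 ± 0.999 TPM (SD, n = 5) in young and 2.58 ± 0.0515 TPM (SD, n = 4) in old brains. Dnmt3b, at 0.754 TPM, and Uhrf1, at 0.716 TPM, were at the bottom. Inside single libraries, Tet3 was above Uhrf2 in 7 of 9 and Dnmt3b above Uhrf1 in 7 of 9, so the order of these neighbours is not fixed. The place of Mbd1 depends on the gene length used: by CPM per kilobase of annotated exon it was at 4.84, below Dnmt1 at 10.3, Dnmt3a, Tet3 and Uhrf2, since the length behind the deposited TPM was 0.4012 of its 6703 annotated exonic bases when scaled to Dnmt1. TPM values of all genes also move with 1 short RNA gene, Gm23935, of 57 bases. It took between 8.68% (young 3) and 39.5% (old 3) of a library's TPM and between 0.149% and 1.09% of its counts. The next lowest share of TPM was 24.1% (young 1), so young 3 raises the TPM means of the young group. On TPM rescaled without genes above 50000 TPM, the log2 fold change of Tet1 was -0.37 in limma.

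**Figure D4:**
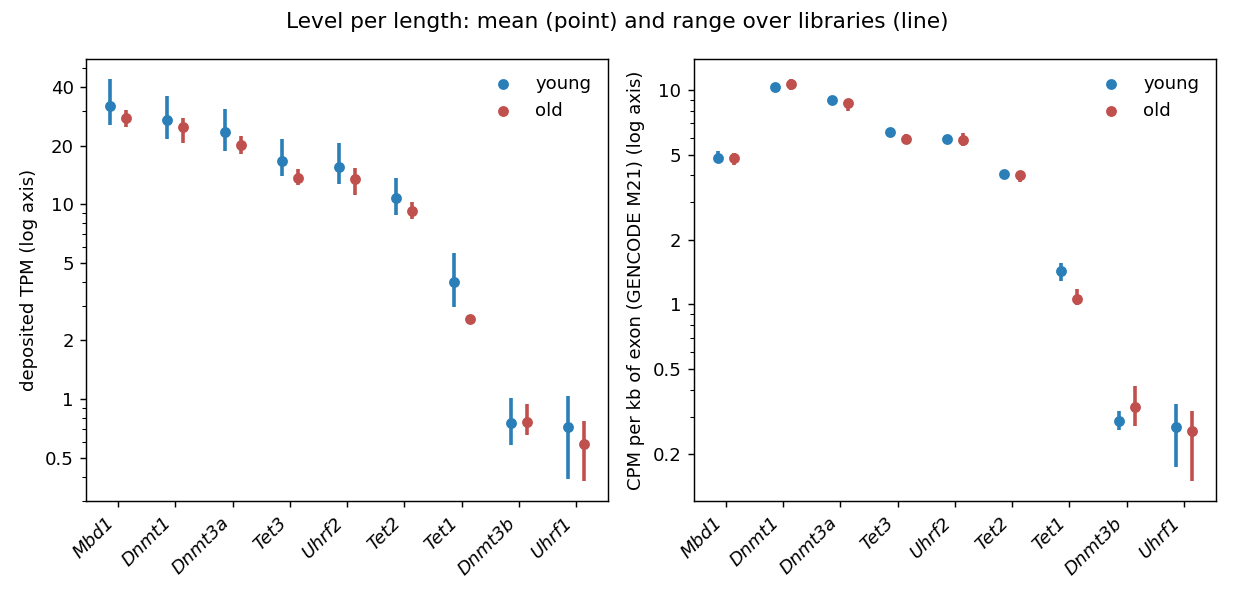
Level per length of the 9 genes on log axes, as deposited TPM (left) and as CPM per kilobase of annotated exon (right), with points at the group mean and lines from the lowest to the highest library. Dnmt3b and Uhrf1 are lowest on both scales, and Mbd1 is highest on the TPM scale only.

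By the smallest root mean square difference of scaled log2 CPM over the 9 libraries, the genes most like Tet1 were Clasp2, a microtubule plus-end protein (0.175 SD units), Actr10, a dynactin subunit (0.182), and Dhcr7, which completes cholesterol synthesis (0.227). Those most like Tet3 were Atp1b1, a sodium pump subunit (0.21), Itm2a (0.216) and the brain proteoglycan gene Ncan (0.26). For Dnmt3a they were the potassium channel gene Kcnn3 (0.269), Zfp827 (0.316) and Zkscan2 (0.323), and for Dnmt3b they were Ndrg1 (0.414), the kinesin gene Kif5b (0.431) and Zfp24 (0.467). The values for Dnmt3b are the weakest likeness of the 4 sets. These are picks out of 11213 genes and are given as a description.

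The wider pathway was read from 10 lists with 127 genes, chosen with earlier results of these data known. Of the 115 genes kept, 21 passed an adjusted p of 0.05 in edgeR (18.3%, against 11.0% of all genes, with no set test run). Of the 21, 10 were higher and 11 lower in old brains, and 0 also passed the fold threshold. These calls depend on the scale: of the 21, limma on log2(TPM + 1) called 1, Zfp57 (adjusted p = 0.047), and on TPM rescaled without genes above 50000 TPM it called 5 (Ndn, Idh2, Zfp57, Ogdh and Lig1). In the list of maintenance partners, 2 of 10 rose and 1 fell, with a median log2 fold change of 0.06. The replication clamp gene Pcna rose from 33.5 ± 1.08 to 39.7 ± 2.34 CPM (log2 fold change 0.25, SE 0.05, adjusted p = 0.0065), and the ligase gene Lig1 from 14.2 ± 0.212 to 17.4 ± 0.279 CPM (0.29, SE 0.06, adjusted p = 0.0045). Lig1 shares exonic bases with Zswim9 on the opposite strand. The imprint guardian Zfp57 fell from 10.9 ± 1.04 to 7.74 ± 0.38 CPM (-0.50, SE 0.09, adjusted p = 0.0035).

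Among methyl-CpG readers other than Mbd1, 2 of 9 rose and 0 fell (median 0.11). Mbd2, the reader of the NuRD complex, rose from 42.0 ± 0.736 to 47.1 ± 1.69 CPM (log2 fold change 0.17, adjusted p = 0.02 in edgeR), and Zbtb38 from 69.0 ± 3.68 to 78.6 ± 2.54 CPM (0.19, adjusted p = 0.016). Among other settings, the call of Mbd2 was lost without old 5 (adjusted p = 0.066) and when every gene with a count was tested (0.058). Of 17 genes of NuRD and other corepressors, Mta2 rose from 46.5 ± 1.85 to 55.4 ± 3.31 CPM (0.25, adjusted p = 0.0051) and Hdac2 fell (-0.12, adjusted p = 0.046). The call of Hdac2 was lost in every fit that left out 1 library. Among de novo partners, 1 of 7 rose, the histone methyltransferase gene Suv39h1 (0.22, adjusted p = 0.044, called in 2 of 9 fits that left out 1 library and not in DESeq2).

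Of 7 CXXC genes, Cxxc4, whose product binds Tet2, fell from 47.2 ± 1.0 to 40.5 ± 2.26 CPM (log2 fold change -0.22, adjusted p = 0.0079 in edgeR) and Kmt2a rose (0.15, adjusted p = 0.04, called in 3 of 9 fits). In the base excision list, 1 of 14 passed: Tdg, the glycosylase that removes the oxidized bases made by TET enzymes, fell from 26.8 ± 0.959 to 23.8 ± 0.709 CPM (-0.17, adjusted p = 0.042). Its call held in 1 of 9 fits that left out 1 library and not in DESeq2. TET enzymes need 2-oxoglutarate, and among 9 genes that make or use it Idh2 rose from 30.5 ± 1.51 to 38.9 ± 3.70 CPM (0.36, adjusted p = 0.0033), while Ogdh fell (-0.16, adjusted p = 0.0043), as did Idh1 (-0.23, adjusted p = 0.028) and Idh3b (-0.15, adjusted p = 0.019). The call of Idh1 was lost without young 1 (adjusted p = 0.062), old 1 (0.081) or old 5 (0.081), and that of Idh3b without old 3 (0.052). Of 12 genes of the methyl donor cycle, Mat2a, which makes S-adenosylmethionine, rose (0.13, adjusted p = 0.035, called in 3 of 9 fits). On log2(TPM + 1), with its shift of -0.14 in all genes, Mat2a (-0.032), Kmt2a (-0.017) and Mbd2 (-0.001) were not higher in old brains.

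The last 2 lists hold genes that DNA methylation is known to control. Of 16 germline genes, 8 were kept and 0 passed in edgeR (1 at an unadjusted p under 0.05, and 0 in DESeq2, which gave Tdrd1 no adjusted p), with 7 of 8 values below 0 and a median log2 fold change of -0.33. Summed over all 16 listed genes, the level was 26.4, 28.0, 23.2, 23.1 and 24.4 CPM in young brains. It was 21.6, 22.3, 22.5 and 23.0 CPM in old brains, without overlap but with young 4 and old 5 almost equal. Sums of other lists did not overlap either: maintenance partners and methyl-CpG readers were higher in old brains, and the 2-oxoglutarate list lower. Among germline genes, the lowest p was that of Tdrd1, at 0.735 ± 0.176 and 0.389 ± 0.121 CPM (-0.94, adjusted p = 0.061 in edgeR). It rests on 8 to 18 counts a library in young and 5 to 8 in old brains. Without young 1, young 2 or young 4 it did not pass the low-count filter and 7 germline genes were kept, so its test depends on the young brains. In the other fits that left out 1 library its adjusted p ran from 0.048 (without old 3) to 0.15. The tally of 7 of 8 values below 0 includes Tdrd1. Of 22 imprinted genes, 1 rose and 4 fell (median -0.09). With 1 library left out, 0 to 2 rose and 1 to 6 fell. The most fell without young 1, where Peg10 and Usp29 were added, and the most rose without old 1, where Igf2 was added. Ndn, a neuronal growth suppressor, fell from 145 ± 12.5 to 115 ± 1.70 CPM (-0.33, adjusted p = 0.0021), Magel2 from 9.09 ± 1.28 to 6.78 ± 0.614 CPM (-0.42, adjusted p = 0.032), and Nnat (-0.22, adjusted p = 0.044) and Gnas (-0.17, adjusted p = 0.033) fell as well, whereas Plagl1 rose (0.24, adjusted p = 0.025). Of these 5, Ndn was called in all 9 fits that left out 1 library, Gnas and Plagl1 in 4, Magel2 in 3 and Nnat in 2, and the groups overlapped for Magel2, Gnas and Nnat. Exons of Cxxc4, Kmt2a, Tdg, Idh3b, Mat2a, Suv39h1, Gnas, Nnat and Plagl1 overlap a gene on the opposite strand, so their counts are uncertain if strand was not used.

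Cell type markers moved between the same groups. Of 6 markers of oligodendrocyte precursors, 3 fell in old brains: Gpr17 (log2 fold change -0.83), C1ql1 (-0.44) and Cacng4 (-0.28, the most abundant), while Pdgfra (0.05), Cspg4 (-0.11) and Lhfpl3 (-0.01) did not pass. The groups overlapped for C1ql1, whose call held in 4 of 9 fits that left out 1 library. Their summed level was 207, 227, 214, 206 and 219 CPM in young and 178, 188, 180 and 190 CPM in old brains, without overlap. The mean log2 CPM of the list did not overlap between the groups either, as for 4 of the 13 marker lists: it was higher in old brains for microglia, endothelial cells and blood. For microglia this rests on 4.76 in old 1 against 4.75 in young 4, and the summed level overlapped, with young 4 at 400 CPM above old 1 at 390 and old 3 at 394 CPM. Of the markers of microglia 5 of 10 rose (median 0.46), of endothelial cells 4 of 7 (0.25) and of blood 7 of 7 (1.31). Without young 4, 8 of 10 microglia markers rose, and 2 of 7 endothelial markers did without young 1 or without old 4. Young 4, the young library with the lowest Tet1, had the highest mean of microglia markers among young brains (4.75 log2 CPM, against 4.11 to 4.14). Leaving young 4 out gave Tet1 a log2 fold change of -0.47. Old 4, the library with the highest Dnmt3b, had the highest mean of proliferating cell markers among old brains (2.53 log2 CPM, against 1.60 to 1.73). Old 4 also had the highest mean of blood markers among old brains (5.46 log2 CPM, against 2.95 to 3.88). Of 13 proliferating cell markers kept, 1 rose (Mcm3) and 0 fell in edgeR. The call of Mcm3 held in 3 of 9 fits that left out 1 library, without young 2, young 5 or old 1, and without old 4 Mcm5 and Top2a fell. Of 10 neuronal markers 2 fell, Map2 and Tubb3, and 0 rose (median -0.02), of 9 astrocyte markers 0 passed in edgeR (2 at an unadjusted p under 0.05, and 2 in DESeq2; median 0.05), and of 9 oligodendrocyte markers 4 rose and 2 fell (median -0.03). Of the neuronal markers Tubb3 alone fell without young 1, young 4, young 5, old 1, old 4 or old 5, and Gad1 rose without young 2 or old 4. Of the oligodendrocyte markers 0 fell without young 1, young 5 or old 1, 1 fell without young 3, old 4 or old 5, and 2 rose without old 3 or old 4. Among 7 cerebellar granule cell markers 0 passed in edgeR (3 at an unadjusted p under 0.05, median -0.27). Without young 2, old 1 or old 4, Fat2 fell. For the olfactory bulb 0 of 7 passed (4 at an unadjusted p under 0.05, median 0.49), but 3 of 6 rose without young 2 and 1 of 7 without old 4. In choroid plexus and ependyma 1 of 7 markers fell and 0 rose. In immature neurons 1 of 8 fell and 0 rose, but Dlx1 rose without young 2, and Dlx1 and Dlx2 without old 4. In mural cells 1 of 6 rose and 0 fell, but 0 rose without old 3 or old 4, and Pdgfrb fell without young 4. No marker list held a gene at 0 in all libraries. The part of these cells in the values of Tet1, Pcna and the other genes was not tested.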

How the data were processed

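RNA-seq of whole brain was analysed for 5 young and 4 old mice. By the study's methods, the authors trimmed reads with Trimmomatic, aligned them to GRCm38 (mm10 in the submitters' processing notes) with STAR and used featureCounts for unique exonic reads. Per the deposited table, these counts are raw whole numbers. The deposited TPM values sum to 1000000 in each library. A further deposited table gives a signal for 17994 genes, the counts of each library after the authors divided them by its size factor. Each of these tables held 1 further column of per-sample values, labelled as a further old brain, that matched no listed sample and was not used. The paper gives 5 biological replicates an age for the transcriptome, and the old group here held 4. Strand-specific counting is stated only for strand-specific libraries.

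Counts were filtered with edgeR 4.0.16 (filterByExpr, minimum count 10, minimum total 15), normalized by TMM and compared with glmQLFit and glmQLFTest in R 4.3.3, with Benjamini-Hochberg adjustment over 18492 genes. CPM use TMM library sizes, and log2 CPM a prior count of 2. Exact permutation tests over samples were two-sided (126 splits). Intervals and p-values measure the spread between these libraries. The biological coefficient of variation was 6.71%. On simulated data with 200 genes changed by a log2 fold of 1, 87.5% were called and 6.42% of calls were unchanged genes.

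Alternatives were DESeq2 1.42.0, RLE and upper quartile factors, other filters, limma 3.58.1 on log2(TPM + 1), log2(TPM + 0.1) and log2(normalized counts + 1), a replicate block and leaving out each library. The limma fits on TPM were first run with a filter on log values and, after their output was seen, restricted to the genes kept for the count test. Rescaled TPM (without genes above 50000 TPM), ratios between members and exact tests on TPM were added after seeing the data. Gene positions are from GENCODE M21 and sequences from RefSeq; 8 of 9 members had a promoter window. All members were named, as were up to 25 pathway genes past an adjusted p of 0.05 by lowest p, the lowest p of a list with none, and the 3 most alike genes for 4 members. The members and lists were chosen with earlier results of these data known.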

Additional observations from a re-analysis of the deposited data

Results flagged for a closer look

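Among 88 combinations of a group with 1 of 9 members, 22 named pathway genes or 13 marker lists, 5 held a library far from the others of its group by Dixon's criterion, which chance gives in about 1 in 20, or 4.4 here. Uhrf1 was at -0.41 log2 CPM in old 1, against 0.39 to 0.55 in the other old brains. The mean log2 CPM of the proliferating cell markers was 2.53 in old 4, against 1.60 to 1.73, with Mki67 at 157 counts there and 30 to 38 in the other old brains. Immature neuron markers were at 3.69 in young 2, against 3.17 to 3.29 in the other young brains, and olfactory bulb markers at 4.14 in the same library, against 2.66 to 3.06. Microglia markers were at 4.75 in young 4, against 4.11 to 4.14. Values of Tet1 without each of these libraries stayed past the threshold.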

How the results depend on the processing

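The count of genes past the threshold was 2039, and 594 on log2(TPM + 1), 600 on log2(TPM + 0.1) and 997 on rescaled TPM, which leaves out genes above 50000 TPM. Members called were 1 in every fit except 0 on both unscaled TPM scales, on which the median of all genes moved by -0.14 and -0.16. There Tet1 had log2 fold changes of -0.46 (adjusted p = 0.13) and -0.58 (0.14), and on rescaled TPM -0.37 (0.046). Other values turned sign on log2(TPM + 1) and log2(TPM + 0.1): Dnmt1 (-0.11 and -0.12), Mat2a (-0.032 and -0.033), Kmt2a (-0.017 on both) and Mbd2 (-0.001 and 0). In the exact tests on log2(TPM + 1), Dnmt1 was at -0.11 (exact p = 0.524) and Tet3 at -0.24 (exact p = 0.0952). Replicate numbers did not pair the samples (r of 0.17, -0.12, 0.09 and -0.02 for numbers 1, 3, 4 and 5); with the replicate block 1687 genes were called and Tet1 was at -0.43 (adjusted p = 0.0057). Of the 21 pathway genes called, 1 was called on each of log2(TPM + 1) and log2(TPM + 0.1), 5 on rescaled TPM, 13 with the replicate block (Mbd2, Idh1, Magel2, Gnas, Mat2a, Tdg, Suv39h1 and Hdac2 were not), 16 with every gene with a count, 18 in DESeq2, and 12 to 16 with a library left out.

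With each library left out in turn, 1454 to 1942 genes were called. The differences of log2 CPM behind the exact tests ran from 0.080 to 0.276 for Dnmt3b, -0.037 to 0.028 for Mbd1, -0.043 to 0.011 for Tet2, -0.189 to 0.155 for Uhrf1 and -0.055 to 0.013 for Uhrf2. The fitted log2 fold changes ran from 0.023 to 0.078 for Dnmt1, -0.073 to -0.015 for Dnmt3a, 0.083 to 0.315 for Dnmt3b, -0.036 to 0.028 for Mbd1, -0.044 to 0.010 for Tet2, -0.184 to 0.141 for Uhrf1 and -0.054 to 0.013 for Uhrf2. Differences of log2 ratios ran from 0.067 to 0.152 for Dnmt1 to Dnmt3a, -0.240 (without old 1) to -0.028 (without old 4) for Dnmt1 to Dnmt3b, -0.338 to -0.094 for Dnmt3a to Dnmt3b, 0.048 to 0.087 for Tet2 to Tet3 and -0.178 to 0.161 for Uhrf1 to Uhrf2. The causes were not tested. Dnmt3b and Uhrf1 rest on 12 to 39 counts a library, which limits what can be seen of them.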
